A study of Mus musculus with 8 samples.

Results

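The adipocyte genes described here are 10 transcripts by which fat tissue is commonly recognised: Adipoq, Plin1, Plin4, Fabp4, Lep, Cidec, Cfd, Retn, Lipe and Pparg. They were taken by gene symbol from tables of 24028 genes, and all 10 were found. The tumours grew from TRAMP-C2 cells, a mouse prostate adenocarcinoma line, after 1 M cells had been placed in the dorsolateral prostate of male C57BL/6 mice that were otherwise untreated as far as the labels say. The 4 aged hosts were 20 to 24 months old, the 4 young hosts were 4 months old, tumours were collected 30 to 45 days after injection, and each tumour bears a mouse number of its own, by which it is called here (aged 46, young 36 and so on). All tumours come from a single cell line, and the host keeps its own prostate, seminal vesicles, connective tissue and fat, so bulk RNA of a tumour holds transcripts of both. The study asks how an aged host changes the same tumour line.

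White adipocytes store triglyceride in a large lipid droplet. The droplet is coated by perilipins (Plin1, Plin4) and fused by CIDE proteins such as that of Cidec, and its lipid is broken down by lipases that include hormone-sensitive lipase, encoded by Lipe. The nuclear receptor of Pparg, with C/EBP factors, drives formation of the fat cell, and mature fat cells secrete hormones and other proteins, among them adiponectin (Adipoq), leptin (Lep), resistin (Retn, in mice) and the complement protease adipsin (Cfd). Fabp4, a fatty acid carrier, is also made by macrophages and capillary endothelium, and Pparg and Lipe are active in several other cell types, which makes these 3 less restricted to fat than the rest.

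The first question was whether these genes went together over the tumours. Their levels, as CPM (fragments per 1 M of the library), went up and down in common: young 36 had the lowest value of 7 of the 10 genes and aged 46 of the other 3, and aged 46 was among the lowest 2 tumours for every member. For 9 of the 10 genes, all but Pparg, these 2 tumours were the lowest pair, as for 3.44% of all tested genes. Aged 51 was highest for 4 members, aged 50 for 3 and young 43 for 3. Thus 1 tumour of each host age stood low, and high tumours occurred in both ages. In bulk RNA, fewer fat cells and less RNA per fat cell cannot be told apart.

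The C/EBP factors and the receptor of Pparg bind DNA near many fat cell genes, so the 250 bases before the transcription start were searched. Windows of 3 members are shown, picked because they hold the C/EBP-type motif TTGCNNAA, given in capitals (RefSeq, GRCm38.p6, written 5′ to 3′ on the strand of the gene). The windows of Adipoq, Plin4, Cfd and Retn, which went together with these 3 over the tumours, held 0 such motifs. The Plin1 window is chr7:79732777-79733026 on the minus strand, the Lep window chr6:29059971-29060220 on the plus strand, and the Cidec window chr6:113434765-113435014 on the minus strand, the latter being 1 of 2 starts listed for Cidec.
Plin1: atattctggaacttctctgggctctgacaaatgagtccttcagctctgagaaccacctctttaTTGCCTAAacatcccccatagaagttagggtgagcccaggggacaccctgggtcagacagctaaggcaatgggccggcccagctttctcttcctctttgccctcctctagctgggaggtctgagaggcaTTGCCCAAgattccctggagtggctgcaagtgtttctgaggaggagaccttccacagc
Lep: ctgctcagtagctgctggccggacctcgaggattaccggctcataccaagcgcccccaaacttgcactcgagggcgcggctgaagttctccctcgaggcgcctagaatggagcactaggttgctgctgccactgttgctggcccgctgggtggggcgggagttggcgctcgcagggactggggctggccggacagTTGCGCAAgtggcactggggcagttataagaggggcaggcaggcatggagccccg
Cidec: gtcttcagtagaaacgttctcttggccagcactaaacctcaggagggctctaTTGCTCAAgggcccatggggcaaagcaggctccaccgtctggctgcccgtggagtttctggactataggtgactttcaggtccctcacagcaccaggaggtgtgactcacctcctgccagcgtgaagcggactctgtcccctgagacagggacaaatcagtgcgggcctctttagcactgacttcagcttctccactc
The motif began 187 and 58 bases before the start in Plin1, 55 bases before it in Lep and 198 bases before it in Cidec. The gene spans given below reach further, to 79732904 for Plin1 and 113435760 for Cidec, so both of these starts lie inside them. The window of the other Cidec start held 0 such motifs. Searched on both strands, TTGCNNAA was found in 4 of 13 windows of 9 members (Plin1, Lep, Cidec and 1 of the 3 Pparg starts) and in 9.56% of 32851 windows of all genes in the table. The core AGGTCA was found in 2 of the 13, both of Pparg, against 14% of all windows, and TATAAA in 1, also of Pparg, against 12.4%. The direct repeat AGGTCANAGGTCA, which contains the core and is the classical form bound by PPAR with its partner RXR, was in 0 of the 13 and in 0.0335% of all windows. These are letter matches only, and several windows belong to the same gene.

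**Figure D1:**
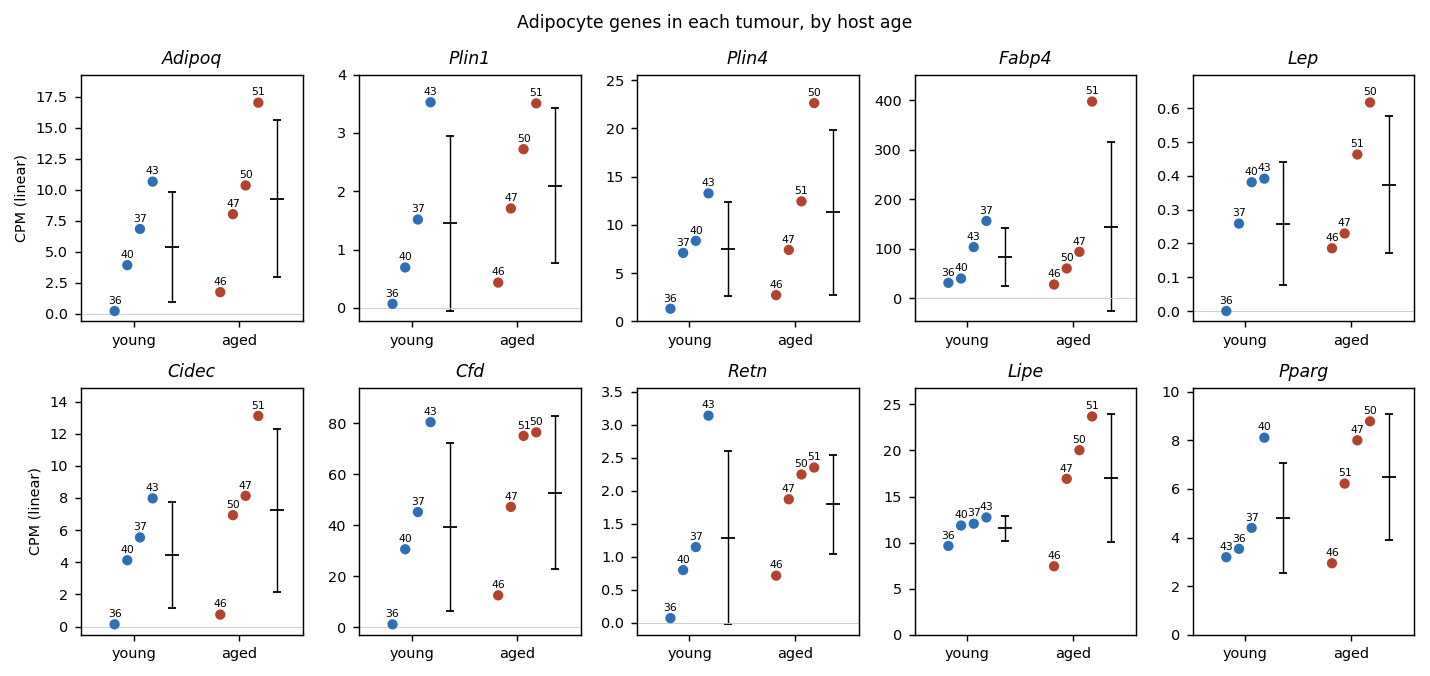
Level of each gene (CPM, linear axis) in the 4 tumours of young and the 4 of aged hosts, labelled by mouse number, with the mean and SD of each group as a bar beside the points. The 2 host ages overlap in every panel, and young 36 and aged 46 lie at or near the bottom of most.

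Among the secreted products, Adipoq (Entrez 11450, GRCm38 chromosome 16, 23146536 to 23157968) had 1.73, 8.03, 10.4 and 17.0 CPM in aged 46, 47, 50 and 51, and 0.208, 6.84, 3.92 and 10.7 CPM in young 36, 37, 40 and 43. The lowest value rested on 6 fragments and the highest on 515, so the tumours spanned 81.9-fold. The ages overlapped, with young 43 above 3 of the 4 aged tumours. Adiponectin is a hormone made almost only by fat cells. Cfd (Entrez 11537, chromosome 10, 79890853 to 79892655) had 12.6, 47.2, 76.4 and 75.0 CPM in the aged tumours and 1.21, 45.2, 30.6 and 80.4 CPM in the young ones, in the same order of mice. Its highest tumour was thus a young one, and its lowest was again young 36 with 35 fragments.

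Retn (Entrez 57264, chromosome 8, 3655770 to 3659818) stood at 0.712 to 2.35 CPM with aged and 0.0693 to 3.13 CPM with young hosts, with young 43 highest and young 36, at 2 fragments, lowest. Lep (Entrez 16846, chromosome 6, 29060221 to 29073876), the satiety hormone, was the scarcest member, with 81 fragments over all 8 tumours. It had 0.186 to 0.617 CPM with aged and 0 to 0.392 CPM with young hosts. The 0 fragments in young 36 allow up to 0.104 CPM (3 fragments, counting error only), which is below every other young tumour.

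Of the droplet proteins, Plin1 (Entrez 103968, chromosome 7, 79721164 to 79732904), the perilipin typical of fat cells, had 0.434, 1.71, 2.72 and 3.51 CPM in aged 46, 47, 50 and 51 and 0.0693, 1.52, 0.693 and 3.53 CPM in young 36, 37, 40 and 43. Aged 51 and young 43 were thus level at the top, and young 36 had 2 fragments. Cidec (Entrez 14311, chromosome 6, 113424634 to 113435760) had 0.743, 8.13, 6.93 and 13.1 CPM in the aged and 0.139, 5.54, 4.12 and 7.98 CPM in the young tumours. Its lowest tumours were the same 2, at 4 fragments (young 36) and 24 fragments (aged 46).

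Plin4 (Entrez 57435, chromosome 17, 56100587 to 56109948) followed this order less closely. It was highest in aged 50 with 22.6 CPM, followed by young 43 with 13.3 CPM and aged 51 with 12.4 CPM, and lowest in young 36 with 1.32 CPM. Its exons share 17 bases with Hdgfl2 on the opposite strand (GENCODE vM21), and whether the counting used strand is unknown from the sources used here.

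Fabp4, Lipe and Pparg varied differently. Fabp4 (Entrez 11770, chromosome 3, 10204342 to 10208616) had 27.7, 93.8, 60.2 and 398 CPM in the aged and 31.1, 156, 39.8 and 103 CPM in the young tumours. A single tumour, aged 51, held 12019 of its 27888 fragments. Lipe (Entrez 16890, chromosome 7, 25379527 to 25398486) had 7.43, 16.9, 20.0 and 23.7 CPM in the aged and 9.64, 12.05, 11.9 and 12.7 CPM in the young tumours. Its young values lay close together, 3 of the 4 aged values were above all of them, and aged 46 was below all of them. Of the 5886 exonic bases of Lipe, 918 lie opposite the antisense gene 4732471J01Rik, so its count is uncertain for the same reason. Pparg (Entrez 19016, chromosome 6, 115360879 to 115490404) had 2.94, 8.001, 8.78 and 6.22 CPM in the aged and 3.54, 4.399, 8.11 and 3.19 CPM in the young tumours. Young 43, among the top tumours for Adipoq, Cfd, Plin1 and Retn, was the second lowest for Pparg.

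**Figure D2:**
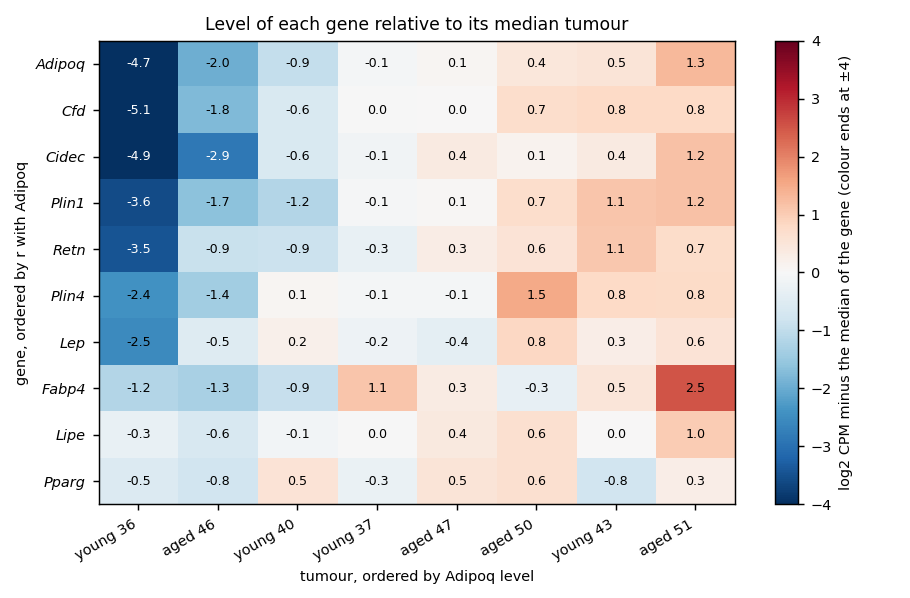
Log2 CPM of each gene minus the median of that gene over the 8 tumours, with tumours ordered by their Adipoq level and genes by their correlation with Adipoq (number in each cell, colour scale ending at 4 either side). The upper 5 rows fall steeply towards young 36 and aged 46 at the left, whereas Lipe and Pparg at the bottom change little.

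Correlation over tumours put numbers on this order. On log2 CPM over all 8 tumours, 6 of the 9 other members had a Pearson r with Adipoq of at least 0.9, which 0.11% of all other tested genes reached (16 of 14574, these 6 included). The same 6 were the members with an r of at least 0.8, which 0.515% of the other genes reached. The closest was Cfd (r = 0.99, exact permutation p = 0.000124, Spearman rho = 0.98, exact permutation p = 0.000397), with adjusted p = 0.000372 for r and 0.000893 for rho (Benjamini-Hochberg over the 9 relations). Cidec had r = 0.98 (exact permutation p = 0.000124, adjusted p = 0.000372) and rho = 0.98 (exact permutation p = 0.000397). Plin1 had r = 0.98 (exact permutation p = 2.48e-05, the smallest that the pairings can give, adjusted p = 0.000223), and it ordered the tumours exactly as Adipoq did (rho = 1.0, exact permutation p = 4.96e-05). Retn had r = 0.97 (exact permutation p = 0.000446, adjusted p = 0.001) and rho = 0.98 (exact permutation p = 0.000397).

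For Plin4 r was 0.92 (exact permutation p = 0.00226, adjusted p = 0.00406) and rho 0.83 (exact permutation p = 0.0154), and for Lep r was 0.92 (exact permutation p = 0.0063, adjusted p = 0.00945) and rho 0.83 (exact permutation p = 0.0154). Fabp4 had r = 0.73 (exact permutation p = 0.0401, adjusted p = 0.0501) and rho = 0.81 (exact permutation p = 0.0218, adjusted p = 0.0245). Lipe had r = 0.71 (exact permutation p = 0.0445, adjusted p = 0.0501) and rho = 0.90 (exact permutation p = 0.00456, adjusted p = 0.00821). Pparg had r = 0.45 (exact permutation p = 0.286) and rho = 0.29 (exact permutation p = 0.501). Over the 21 pairs of the 7 members other than Fabp4, Lipe and Pparg, r ran from 0.88 to 0.99, and over all 45 pairs from 0.21 to 0.99, a split of the members made after their values were seen.

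The 2 tumours farthest from the Adipoq median were young 36 and aged 46. Without them r was 0.95 for Plin1 (exact permutation p = 0.00139, adjusted p = 0.0125), 0.95 for Cidec (exact permutation p = 0.0153, adjusted p = 0.0458) and 0.92 for Cfd (exact permutation p = 0.00694, adjusted p = 0.0313), so these 3 relations did not rest on the low tumours. Retn had 0.87 (exact permutation p = 0.0236, adjusted p = 0.0531) and just missed the threshold. Plin4 fell to 0.57 (exact permutation p = 0.249) and Lep to 0.44 (exact permutation p = 0.383), so both relations were weaker without young 36 and aged 46. With 6 tumours, and 7 to 22 Lep fragments in each, it cannot be told whether they rested on the 2 low tumours. Fabp4 had 0.78 (exact permutation p = 0.0819), Lipe 0.80 (exact permutation p = 0.0444, adjusted p = 0.08) and Pparg -0.19 (exact permutation p = 0.689). Over these 6 tumours 4.47% of all other tested genes had an r of at least 0.8 with Adipoq, as did 5 of the 9 members.

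**Figure D3:**
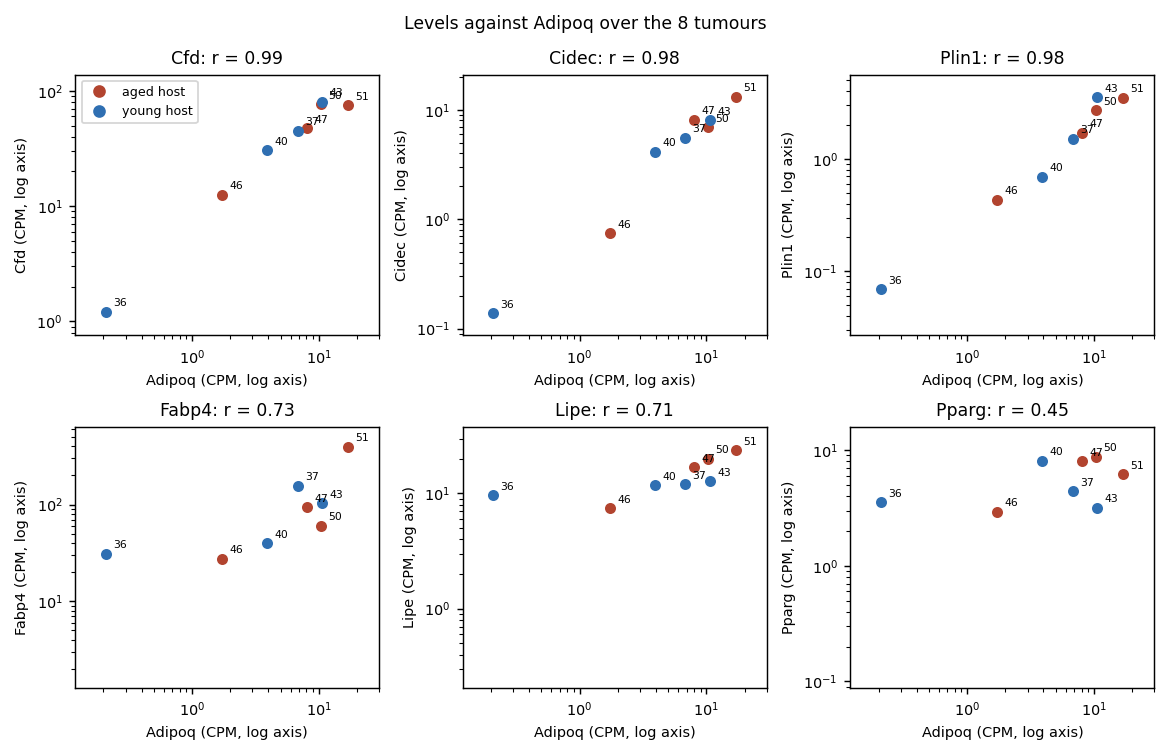
Level of 6 members against Adipoq in the 8 tumours (CPM, log axes, points labelled by mouse number, r from log2 CPM). Cfd, Cidec and Plin1 form a rising line from young 36 to aged 51, while Fabp4, Lipe and Pparg are nearly flat at the low end.

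The ratio of fragments to those of Adipoq, a measure chosen after the values were seen, sets the genes side by side within each library. There were 4.4 (aged 51) to 7.81 (young 40) Cfd fragments per Adipoq fragment. The 95% exact binomial intervals of these ends, which cover counting error only, were 4.00 to 4.85 and 6.42 to 9.59. In young 36, the ratio was 5.83 (2.43 to 17.0), within the range of the other tumours although its Adipoq level was the lowest of all. For Plin1 the ratio ran from 0.177 (young 40) to 0.333 (young 36, 0.033 to 1.86). For Plin4 it was 6.33 in young 36 (2.66 to 18.3) against 0.73 to 2.18 in the other 7 tumours. For Fabp4 it was 150 in young 36 (68.5 to 409) against 5.82 to 23.3 in the other 7 tumours. For Lipe it was 46.3 in young 36 (21.0 to 127) against 1.19 to 4.29, and for Pparg 17.0 (7.55 to 47.4) against 0.299 to 2.07. In young 36, where adiponectin and adipsin transcripts were nearly gone, Fabp4, Lipe and Pparg transcripts, and to a lesser extent those of Plin4, thus stood higher relative to Adipoq than elsewhere. Without young 36 the highest ratio over the lowest was 4.01 for Fabp4, 3.59 for Lipe and 6.93 for Pparg, beside 3.96 for Lep, 2.99 for Plin4, 2.98 for Retn and 1.78 for Cfd, so the genes were less far apart in the other 7 tumours.

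Per transcript length (FPKM, CPM per kilobase), Fabp4 was the most abundant member with a median of 120.1 FPKM, followed by Cfd with 49.8, Adipoq with 6.04, Cidec with 3.63, Lipe with 3.05, Pparg with 2.25, Plin4 with 1.37, Retn with 1.17, Plin1 with 0.481 and Lep with 0.0982. The order of Fabp4, Cfd, Adipoq and Cidec held in 8 of 8 tumours, as did that of Retn, Plin1 and Lep. Cidec was above Lipe in 4 of 8 tumours, Pparg above Plin4 in 6 and Plin4 above Retn in 5, so these neighbours did not differ beyond their spread.

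The comparison the study was designed for, aged against young hosts, separated none of the members. The mean level of Adipoq was 9.29 ± 6.32 CPM (SD, n = 4) with aged and 5.41 ± 4.43 CPM (SD, n = 4) with young hosts, that of Cfd 52.8 ± 29.98 and 39.3 ± 32.9, and Plin1 2.09 ± 1.33 and 1.45 ± 1.51. For Lipe these were 17.0 ± 6.96 and 11.6 ± 1.34 CPM. All 10 members passed the filter on low counts, and 0 of 10 were called by the quasi-likelihood test of edgeR (threshold 0.05, Benjamini-Hochberg over 14575 genes), as were 0 of all genes (0.0%). By DESeq2, 0 members were called against 0.333% of all genes, and by limma voom 0 against 0.0617%. At an unadjusted p of 0.05, edgeR gave 0 members against 4.99% of all genes (2.34% higher in aged hosts). For 0 of 10 members the host ages did not overlap, against 3.4% of all genes.

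The log2 fold changes, aged minus young, were 0.80 ± 0.91 for Adipoq (SE, edgeR, adjusted p = 0.923), 0.72 ± 0.97 for Cidec, 0.54 ± 0.93 for Plin1, 0.59 ± 0.70 for Plin4, 0.44 ± 0.93 for Cfd, 0.49 ± 0.82 for Retn and 0.54 ± 0.78 for Lep. Each of these is smaller than its standard error. Fabp4 had 0.85 ± 0.85, Pparg 0.44 ± 0.39 and Lipe 0.57 ± 0.30, the smallest edgeR p of the 10 (adjusted p = 0.923). All 10 values were above 0, as were 55.3% of all genes, and their median was 0.55, beside 0.03 over all genes. Since most members go together over tumours, these 10 signs are not separate observations.

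The size depended on single tumours, and for Fabp4 so did the direction. With each tumour left out in turn, the log2 fold change stayed above 0 for the other 9 members. Without young 36 the log2 fold change was 0.41 for Adipoq, 0.32 for Cidec, 0.15 for Plin1, 0.04 for Cfd and 0.11 for Retn. Without young 43 it was 1.37 for Adipoq, 1.48 for Plin1 and 1.43 for Retn. Without aged 51, that of Fabp4 was -0.48. The low tumour of each age, aged 46 and young 36, was also left out, a choice made with the values in view, and all 10 values stayed above 0 (0.73 for Adipoq, 0.68 for Cidec, 0.47 for Plin1, 0.35 for Cfd, 0.34 for Retn and 0.91 for Fabp4). Another exclusion chosen after seeing the data took out aged 51 and young 36, a tumour high among the aged and the lowest of the young, which by its make-up lowers the difference. It was then -0.11 for Adipoq, -0.18 for Cidec, -0.25 for Plin1, -0.21 for Cfd, -0.08 for Retn and -0.74 for Fabp4, and it stayed above 0 for Lipe (0.28), Pparg (0.33), Plin4 (0.18) and Lep (0.01). Without aged 46, Lipe was the single member whose ages did not overlap (16.9 to 23.7 CPM in aged, 9.64 to 12.7 CPM with young hosts), against 8.28% of all genes, and its log2 fold change was 0.80 (edgeR, adjusted p = 0.634).

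**Figure D4:**
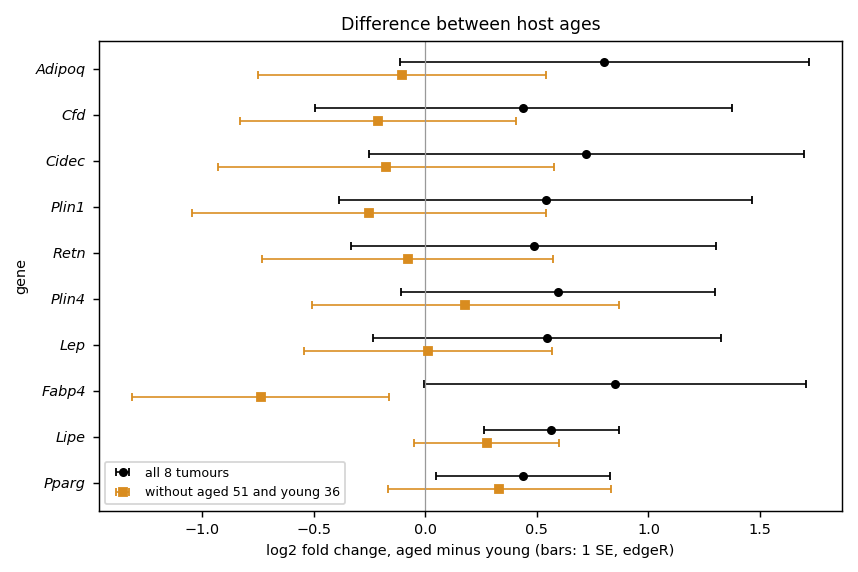
Log2 fold change of each member, aged minus young, with 1 SE from edgeR, for all 8 tumours (black circles) and without aged 51 and young 36 (orange squares). All 10 black circles lie above 0, and 6 of the orange squares lie below it.

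Other genes of the fat cell gave a similar picture between the host ages, but not all of them followed Adipoq over the tumours. Of 16 further genes of mature adipocytes, 12 were tested, 11 had higher and 1 lower values in aged tumours, and 0 passed by edgeR over all genes. Their median log2 fold change was 0.56. Car3, a carbonic anhydrase abundant in fat, followed Adipoq with r = 0.98, with 5.39 to 42.9 CPM in the aged tumours and 0.624 to 40.9 CPM in the young ones, and was again lowest in young 36. Slc7a10, an amino acid carrier of white fat, had r = 0.93, and these were the 2 of the 12 that reached 0.9. Slc7a10 was scarce, with 0.124 to 0.629 CPM in the aged and 0 to 0.644 CPM in the young tumours. Its r thus rests on few fragments. The median r of the 12 was 0.78, and the lowest were Slc2a4 (0.25), Ces1d (0.32), Timp4 (0.36) and Aqp7 (0.38). Ces1d, a lipid-hydrolysing carboxylesterase, had the smallest p of the list (log2 fold change 2.38 ± 1.00, edgeR adjusted p = 0.923), but 1 tumour, aged 50, held 30.3 CPM against 0.557 to 4.20 CPM in the other 7, and without it the value was 0.55. Thrsp, a regulator of lipid synthesis, had 1.62 ± 0.75 (edgeR adjusted p = 0.923), and 0.93 without aged 51. Lgals12, Adrb3, Angptl8 and Klb did not pass the filter on low counts.

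Among 19 genes of fat storage and lipolysis, 18 were tested, 17 had higher and 1 lower values in aged tumours, and 0 passed by edgeR (median log2 fold change 0.28, and 3 of the 18 higher at an unadjusted p of 0.05, beside 2.34% of all genes). Of all genes 55.3% had higher values in aged tumours. Their summed level was 579 to 872 CPM with aged and 492 to 546 CPM with young hosts, which do not overlap, but this sum was examined after its values were seen and is mostly set by genes active in many cell types, with Plin2 the most abundant (98.4 to 216 CPM). Aged 51, the tumour highest in Fabp4, was also highest in Cd36, a fatty acid transporter of fat, muscle, endothelium and macrophages (181 CPM against 5.65 to 53.25 CPM in the other 7), in Pnpla2, the first lipase of fat breakdown (114 CPM against 27.7 to 51.02 CPM), and in Pck1, which feeds glycerol synthesis (19.8 CPM against 0.104 to 4.90 CPM). Cd36 had a log2 fold change of 2.13 ± 0.76 and Pnpla2 0.97 ± 0.35 (edgeR adjusted p = 0.923 for both). Without aged 51 these were 1.02 and 0.45. Mgll, Lpl and Gpihbp1 were also highest in aged 51, but by little. Mgll had 34.8 CPM there against 34.3 CPM in aged 50, and Lpl 53.3 against 49.35 CPM in aged 50. Gpihbp1 had 46.5 CPM against 46.2 CPM in young 36. However, G0s2, Gpd1, Acsl1, Lpin1, Bscl2, Gpam and Plin5 were highest in aged 50, and Dgat1 and Plin3 were lowest in aged 51. The median r of the tested genes of this list with Adipoq was 0.31.

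Brown fat genes were scarce. Ucp1, the heat-producing uncoupler of brown fat, had 0.397 CPM in aged 51, and at most 0.084 CPM in the other 7 tumours, 4 of 8 genes of that list were tested and 0 passed by edgeR (median log2 fold change 0.48). Cidea stood at 1.16 CPM and Elovl3 at 0.893 CPM in aged 51, against at most 0.084 and 0.0347 CPM elsewhere. Ppargc1a, a coactivator of mitochondrial genes, had 1.40 ± 0.50 and Prdm16, a brown fat regulator, 0.67 ± 0.44 on the log2 scale (edgeR adjusted p = 0.923 for both), and without aged 50 Prdm16 had 0.33. Aged 51 was thus the single tumour above 3 fragments (0.0993 CPM) for Ucp1, Cidea and Elovl3 alike. Cox8b was also highest there (0.496 CPM), but the rest of the list was not. Dio2 and Ppargc1a were highest in aged 47, Prdm16 in aged 50 and Cox7a1 in aged 46. The list summed to 8.40 CPM in aged 51, beside 8.92 CPM in aged 47 and 8.95 CPM in aged 50.

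The transcription factors of fat formation did not follow Adipoq as a list. Of 12, 11 were tested, 5 had higher and 6 lower values in aged tumours, 0 passed by edgeR, and their median r with Adipoq was -0.04. Rxra (0.68), Zfp423 (0.62), Ebf2 (0.58) and Ebf1 (0.51) had the highest r. The rest had at most 0.105, down to -0.46 for Nr1h3. Cebpb, an early adipogenic factor also active in macrophages, had -0.49 ± 0.16 and Nr1h3, a sterol-sensing receptor, -0.63 ± 0.37 (log2 fold change, edgeR adjusted p = 0.923 for both). Cebpa, the partner of Pparg in mature fat cells, stood at 40.5 CPM in young 36 and 20.5 CPM in aged 46, the extremes of the other 6 tumours being 26.5 and 44.7 CPM. Young 36, with almost no Adipoq, thus held as much Cebpa as tumours rich in Adipoq.

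The receptors through which fat hormones act were present throughout. Adipor1 and Adipor2, the adiponectin receptors, had 127 to 187 and 132 to 155.5 CPM. Lepr, the leptin receptor, had 11.2 to 13.5 CPM with aged and 4.31 to 10.2 CPM with young hosts, which do not overlap, as for 3.4% of all genes. Its log2 fold change of 0.75 ± 0.26 did not pass (edgeR adjusted p = 0.923). Of the 5 genes of this list 4 had higher and 1 lower values in aged tumours (median 0.12) and 0 passed. Of the 8 genes of adipose progenitors and their stroma, 7 were tested, 3 had higher and 4 lower values, 0 passed by edgeR (median -0.11), and the summed level was 489 to 1384 CPM with aged and 758 to 1312 CPM with young hosts. Pdgfrb, a receptor of mural cells and fibroblasts, had -0.88 ± 0.20 (edgeR adjusted p = 0.831), with 75.9 to 159 CPM with aged and 183 to 266 CPM with young hosts, and Pdgfra -0.27 ± 0.21 (edgeR adjusted p = 0.923). DESeq2 called Pdgfrb (adjusted p = 0.0233).

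By the naming rule, the genes outside the lists most like Adipoq over the 8 tumours, by Pearson r of log2 CPM, were Hp (0.99), Emb (0.95), Rhbdl1 (0.92), Klhl18 (0.91), Aldh1l1 (0.91), Nuak1 (0.90), Mfsd10 (0.89) and Abcc4 (0.89). Hp, encoding haptoglobin, a haemoglobin-binding plasma protein, had 18.2 to 106 CPM with aged and 4.33 to 95.2 CPM with young hosts. Pearson r does not measure the size of a change, and the others spanned far less than Hp. Klhl18 had 21.0 to 23.9 CPM with aged and 16.7 to 23.7 CPM with young hosts. Mfsd10 had 43.5 to 53.9 and 41.0 to 51.3 CPM. Without young 36 and aged 46 the r was 0.88 for Hp, 0.92 for Emb and 0.49 for Abcc4. Members and list genes, such as Cfd and Car3, rank among them, and genes that the rule leaves out may too, so they are given as a description.

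Markers of other cells and tissues are set beside these results, and their part in them was not tested. Young 36, the tumour with least fat transcripts, held 36946 CPM of the 7 seminal vesicle markers together (3.69% of its fragments) and aged 50 held 21249 CPM, against 0.554 to 17.1 CPM in the other 6. Aged 50 had 10.4 CPM of Adipoq, so seminal vesicle transcripts were high in a tumour rich and in a tumour poor in fat transcripts. Of 10 skeletal muscle markers, 6 were tested, all 6 had higher values in aged tumours (median log2 fold change 1.92) and 0 passed by edgeR. Their sum was 154 CPM in aged 51, with Acta1 at 50.8 CPM and Mylpf at 11.4 CPM, against 9.97 to 22 CPM in the other aged and 11.3 to 40.4 CPM in the young tumours. Of the 10 markers, 0 were at 0 in aged 51 and in young 40, and 3 in each of aged 46, young 36 and young 43. The 10 macrophage markers summed to 1272 to 2746 CPM with aged and 1921 to 2701 CPM with young hosts, lowest in aged 46 and 2634 CPM in young 36, with C1qa and C1qb highest by median (769 and 777 CPM) and Marco lowest (at most 0.365 CPM). The 9 endothelial markers summed to 265 to 448 CPM with aged and 337 to 410 CPM with young hosts, again lowest in aged 46, with Pecam1 at 60.8 to 134 CPM. The 7 neutrophil markers summed to 64.95 to 128 CPM with aged and 39.9 to 93.4 CPM with young hosts, with Mpo and Elane at 0.52 CPM or less.

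Normal prostate secretory genes summed to 40.3 to 4974 CPM with aged and 6.13 to 11156 CPM with young hosts, mesothelial markers to 404 to 735 and 238 to 473 CPM, and nerve sheath markers to 26.1 to 60.3 and 25.3 to 47.5 CPM. The label calls the injected cells epithelial. Krt8 was present in all tumours (21.5 to 124 CPM), and Epcam ran from 0.7 CPM in young 43 to 69.4 CPM in aged 50. Within these lists 0 genes passed by edgeR. The 2 genes with the smallest p in each had adjusted p values of 0.831 (Cd163) or 0.923 to 0.945. Of the macrophage list, 9 were tested, 3 had higher and 6 lower values in aged tumours (median log2 fold change -0.23). Cd163, a haemoglobin scavenger receptor, had 10.4 to 24.9 CPM with aged and 1.66 to 8.04 CPM with young hosts (1.89 ± 0.44), and Mertk, a receptor for dying cells, 0.68 ± 0.24. Among the others the log2 fold changes were 1.33 ± 0.48 for Retnlg and 0.79 ± 0.27 for Cxcr2 (neutrophils), 0.95 ± 0.29 for Vwf and -0.16 ± 0.15 for Cdh5 (endothelium), and 2.68 ± 1.57 for Tnnt3 and 2.31 ± 0.97 for Actn3 (muscle). Both muscle genes stood far higher in aged 51 than elsewhere. Tnnt3 had 18.5 CPM there against 0.104 to 2.495 CPM, and Actn3 8.27 against 0.407 to 0.763 CPM. The log2 fold changes were -5.44 ± 3.67 for Svs4 and -2.04 ± 3.46 for Svs5 (seminal vesicle), and -8.86 ± 3.10 for Spink1 and -8.17 ± 3.34 for Sbp (prostate secretion), where 1 or 2 tumours held nearly all fragments. They were 0.67 ± 0.34 for Msln and 0.61 ± 0.49 for Krt19 (mesothelium), 0.83 ± 0.88 for Krt18 and 0.76 ± 0.48 for Krt14 (epithelium), and 0.42 ± 0.33 for Mbp and 0.30 ± 0.17 for Prx (nerve sheath). Libraries held 27.1 to 35.7 M fragments, and 3 fragments came to 0.084 to 0.111 CPM.

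**Figure D5:**
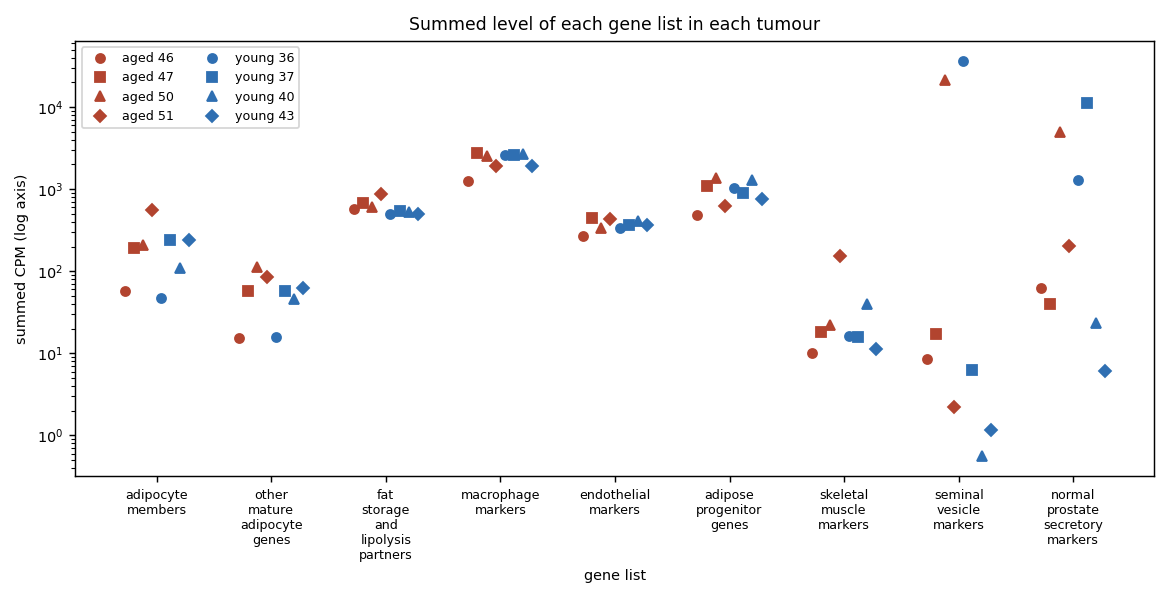
Summed CPM (log axis) of 9 gene lists in each tumour, with red symbols for aged and blue symbols for young hosts. The adipocyte members and the other mature adipocyte genes drop in young 36 and aged 46, whereas the fat storage and lipolysis list does not. Seminal vesicle markers are high in young 36 and aged 50, and muscle markers are highest in aged 51.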

How the data were processed

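RNA of 8 tumours (4 of aged, 4 of young hosts) was read as 50 bp paired ends from TruSeq libraries of 1 µg total RNA, per the labels' protocols. TopHat2 2.0.12, Picard 2.7.1, bcl2fastq and the build GRCm38 (mm10) are named in the submitters' processing notes. How fragments were assigned to genes (program, annotation, use of strand) is not given in the sources used here. The deposited tables hold a fragment count per Entrez gene, per the file headers. The authors also deposited FPM, which equals the count over the table's own total, as CPM, and FPKM, which is that CPM per kilobase of the deposited transcript length (column of lengths, in bases), per the file headers and values. Symbols that had become dates (27) were restored by Entrez number from a RefSeq table of GRCm38, which held 23968 of the 24028 numbers and supplied coordinates. 145 of 146 list genes were found, Trarg1 by its Entrez number.

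Counts were tested with edgeR 4.0.16 (R 4.3.3): filterByExpr with minimum count 10 and total 15, TMM factors, robust quasi-likelihood test on host age alone, Benjamini-Hochberg adjustment over 14575 genes, threshold 0.05. The standard error is the fold change over the square root of F. Correlations used log2 CPM with a prior count of 2, TMM scaling and exact two-sided permutation of pairings. The procedure was tested on simulated data. DESeq2 1.42.0, limma voom 3.58.1, other scalings, no filter, tumours left out and prior counts of 0.5 and 5 were alternatives. Promoter windows were cut to the 250 bases before each start. Depth was 27.1 to 35.7 M fragments.

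The members, lists and tests were chosen with earlier results of these data known. Named genes are all members, the 2 genes of each other list with the smallest p, the 2 of each marker list with the highest median (in part given within list sums), and the 8 genes outside the lists whose r with Adipoq was highest among genes averaging log2 CPM 0 or more, leaving out predicted models. Other list genes were named after their values were seen.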

Additional observations from a re-analysis of the deposited data

How the results depend on the processing

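The call of 0 members held in every alternative run. The count over all genes was 0 by edgeR and went to 51 with DESeq2 and 9 with limma voom, none of them a member. The count of members whose ages did not overlap ran from 0 to 1 (Lipe, without aged 46) when tumours were left out in turn, and was 0 with TMM-scaled CPM. Of 160 alternative log2 fold changes of members, 11 turned negative, while other settings gave higher values: limma voom with sample weights gave 2.26 (Adipoq), 2.41 (Cidec), 1.997 (Plin1), 2.13 (Cfd), 2.13 (Retn) and 1.37 (Lep), with adjusted p of 0.349 to 0.611. Without aged 46 and young 36 all 10 stayed above 0. Without aged 51 and young 36 they were -0.11 (Adipoq), -0.25 (Plin1), -0.74 (Fabp4), -0.18 (Cidec), -0.21 (Cfd) and -0.0792 (Retn), and -0.25 for Hp, -0.13 for Rhbdl1, -0.10 for Aldh1l1 and -0.0701 for Nuak1. Without aged 50 and young 36 they were -0.30 (Plin4), -0.17 (Lep), -0.17 (Cfd), -0.0049 (Retn), -0.15 (Hp) and -0.0703 (Rhbdl1). Young 36 was the lowest tumour for each of these members, and aged 50 was the highest for Plin4 and Lep. Like that of aged 51 and young 36, this exclusion thus lowers the difference by its make-up. With 1 tumour left out, Fabp4 ran from -0.48 (without aged 51) to 1.36, and Rhbdl1 from -0.0341 (without young 36) to 0.29. The cause was not tested.

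Correlations with Adipoq without its 2 farthest tumours missed the adjusted threshold for Plin4 (0.57), Lep (0.44) and Retn (0.87), and that of Pparg turned to -0.19; 6 tumours give less power. With 1 tumour left out, r ran from 0.70 to 0.83 for Fabp4, from 0.66 to 0.94 for Lep and from 0.64 to 0.90 for Lipe. Fabp4 and Lipe passed the adjusted threshold with a prior count of 5 (r = 0.74 and 0.73, exact permutation) and with log2 of CPM plus 0.1, an alternative added after seeing the data (0.74 and 0.74). No paired analysis was possible because the groups share no mouse number. Low counts limit Lep, Plin1 and Retn in young 36, at 0 to 2 fragments each. They also limit Cidec there, at 4 fragments, and Adipoq, at 6 fragments. Every ratio to Adipoq in young 36 is divided by those 6 fragments.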
